A study of Mus musculus with 8 samples.

Results

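The response of CD8αβ intraepithelial lymphocytes to anti-CD3 is the change in each gene between cells taken before restimulation (0 h) and cells taken after 24 h on plate-bound anti-CD3. A gene was a member when an array ID that stands for it had a deposited detection p-value under 0.01 on both arrays at 0 h or on both arrays at 24 h. This held for 6809 of the 7326 genes tested in the study, which in turn came from 31492 array IDs. By this p-value, 5771 of the 6809 met the limit at both times, 354 at 24 h only and 684 at 0 h only. For IDs averaged over several probes it does not follow the signal: Cd44 met it at 24 h only and Itpr1 at 0 h only, although both had signals above the limit used below on all 4 arrays. Below, detected and undetected are therefore read from the signal on each array, against the signal at which single-probe IDs are detected. Nearest the detection limit, Trp53 (0.0098), Diaph1 and Gga3 (0.00994) were just inside and Pnpla8 (0.0101), 5830484A20Rik and Tbc1d5 (0.0102) just outside.

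The cells were lymphocytes from between the epithelial cells of the gut of C57BL/6 mice. All groups shared a first activation of 48 h on plates coated with anti-CD3 (1 µg/ml), in the presence of IL-2, IL-3, IL-4 and IL-15, and then 14 days in IL-2 alone, so the 0 h cells had been activated before. They were then sorted, and the TCRαβ CD8αβ cells were taken at 0 h without renewed anti-CD3 or after 24 h on it at 1 µg/ml, with 2 bead arrays of total RNA at each time. TCRγδ CD8αα cells of the same design, also 2 arrays at each time, serve here only for comparison and for the estimate of spread. An unstimulated group of the same 24 h is absent from the design, so the stimulus and a further day in culture cannot be told apart. Nothing in the labels ties the 2 replicates to different mice or cultures, and p-values then reflect the spread of these samples alone, which could be technical. In bulk RNA, fewer cells of a type and less RNA per cell cannot be told apart either.

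Intraepithelial lymphocytes are T cells of the gut lining, and the CD8αβ kind resembles the cytotoxic T cells found elsewhere in the body. Anti-CD3 cross-links the signalling chains of the T cell receptor, which releases calcium and activates the NFAT, AP-1 and NF-κB transcription factors. Cytokine genes, costimulatory receptors, survival genes and the machinery of growth are the known targets of that signal, and genes of the resting state are known to be switched off by it.

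Before background correction the 4 CD8αβ arrays had median intensities of 71.1 to 82 and between 7747 and 8671 detected IDs. Of 10 T cell marker genes on the array, 9 were detected on all 4 arrays, Cd8b1 and Cd3e among them, and Cd8a (4.42 to 4.47) on 0. The cells were sorted as CD8αβ, so this value does not show that they lacked Cd8a RNA. Whether the array ID reports Cd8a was not tested. The summed level of the 10 markers was 59967 and 66250 at 0 h and 42509 and 53074 at 24 h. The sum over 19 epithelial markers was 762 and 683 at 0 h and 662 and 567 at 24 h, with 17 of them undetected on every CD8αβ array, Vil1 and Krt8 included. Myeloid markers (18 genes, 15 undetected, Csf1r and Lyz2 included) summed to 1780 in 0 h replicate 1 and to between 482 and 798 on the other arrays. Most of the 1780 came from 1 gene, Fcer1g, which stood at 10.19 and 6.04 at 0 h and at 8.54 and 5.38 at 24 h. Cd68 (7.39) and Cd14 (6.23) were lower in 0 h replicate 1. B cell markers (12 genes, 8 undetected, Ms4a1 and Pax5 included) ranged from 678 to 1053 at 0 h and from 482 to 614 at 24 h. Natural killer markers ranged from 775 to 1167 at 0 h and from 677 to 830 at 24 h, with Ncr1 undetected. The 3 γδ T cell markers summed to 734 and 941 at 0 h and to 104 and 306 at 24 h, mostly through the variable segment Tcrg-V4 (−2.90, adjusted p = 0.0747). Markers of helper and regulatory T cells went from 541 and 793 to 2215 and 1846, with Cd4 and Foxp3 undetected and Ctla4 alone detected. The part of these cell types in the results below was not tested.

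Levels are log2 signals after background correction and quantile normalization. Pairs of values give replicate number 1 first and number 2 second, and a change is the 24 h level minus the 0 h level. A gene passed when its limma adjusted p was under 0.05 over all 7326 genes. Of the 6809 members 303 passed (4.45%), 162 higher and 141 lower at 24 h. The share over all genes tested was 4.19%, with 2.24% higher and 1.95% lower. Among the 162 rises 62 met the detection limit at 24 h only, and among the 141 falls 41 at 0 h only. For such genes the detection rule itself favours the direction. Of the 354 members detected by it at 24 h only 322 changed upward, and of the 684 at 0 h only 570 changed downward. Of the 303, 276 changed at least 2-fold and 95 at least 4-fold, and these 95 were 71 rises and 24 falls. Unadjusted p was under 0.05 for 26.2% of the genes tested. The 2 times did not overlap for 58.1% of the genes tested (28.4% higher, 29.6% lower) and for all 303 members that passed. For genes that passed, statements below that the times were apart therefore add nothing to the call. A change above 0 was found for 48.9% of the genes tested and one below 0 for 51.1%. The count of all genes called was 307 and rested on every array of the comparison. Leaving out replicate 1 at 0 h gave 18 genes and leaving out replicate 2 at 0 h gave 43. At 24 h the corresponding counts were 21 and 118. Leaving out a CD8αα array of the 0 h group gave 80. All 4 CD8αβ arrays lay on chip 1; on that chip alone 59 genes passed and with the chip as a block 487.

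The size of the response differed between the replicate numbers. Among the 162 rises the median change was 1.92 in number 1 and 1.75 in number 2, and 121 of them were larger in number 1. Among the 141 falls the medians were −1.51 and −1.22, with 110 larger in number 1. Over all 6809 members 4023 had the larger change in number 1. All 303 changed the same way in both numbers, which the test nearly requires with 2 arrays per group. The lowest and highest changes of the rises were 0.73 and 9.66 in number 1 and 0.71 and 5.95 in number 2. Over all 6809 members the medians were −0.01 and 0, and 1275 members (18.7%) changed in opposite directions in the 2 numbers.

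**Figure D1:**
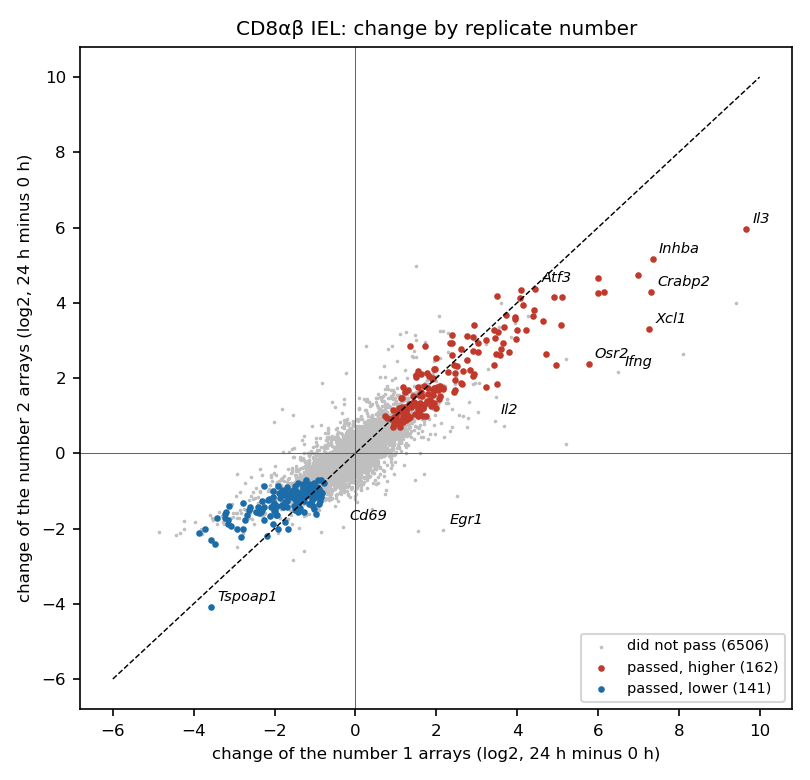
Change from 0 h to 24 h in replicate number 1 (x axis, log2) against number 2 (y axis, log2), with 1 point per member and the 303 members that passed coloured by direction. The members that passed lie in the quadrants where both numbers changed the same way, with rises reaching 9.66 in number 1 and 5.95 in number 2.

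Secreted factors held several of the largest rises. Il3, a growth factor of blood cell precursors, stood at 4.72 and 6.01 at 0 h and at 14.38 and 11.96 at 24 h. It was undetected on 1 of the 0 h arrays, and the rise was at least 163-fold (fitted log2 change 7.81, SE 0.81, adjusted p = 0.0114), larger in number 1 (9.66) than in number 2 (5.95). Csf2, the gene of GM-CSF, went from 7.66 and 6.59 to 13.81 and 10.89 (5.23, SE 1.04, adjusted p = 0.0468). The 24 h arrays of both genes were far apart, with number 1 the higher, yet both lay above both 0 h arrays. Inhba, the βA subunit of activin, went from 4.60 and 6.74 to 11.95 and 11.89 and rose at least 53.3-fold (6.25, SE 0.63). Here the 24 h arrays were close and the 0 h arrays set the spread. Ccl1, a chemokine that binds CCR8, went from 6.88 and 8.55 to 13.88 and 13.30 (58.7-fold, 5.88, SE 0.87). Xcl1, which attracts XCR1-bearing dendritic cells, went from 8.06 and 11.69 to 15.33 and 15.01 (5.29, SE 1.02, adjusted p = 0.0435). Its 0 h level differed widely between the replicates, and without 0 h replicate 1 its change was 3.47.

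Less familiar products were among them too. Penk1, now named Penk, encodes the precursor of the enkephalin opioid peptides; it was undetected at 0 h (4.75 and 5.2) and reached 9.16 and 9.0 at 24 h, a rise of at least 11.2-fold (4.10, SE 0.25, adjusted p = 0.00236). Timp1, an inhibitor of matrix metalloproteinases, went from 4.73 and 6.15 to 10.72 and 10.42 and rose at least 25.6-fold (5.13, SE 0.63). Nrn1, the membrane-anchored protein neuritin, went from 7.37 and 8.30 to 11.77 and 11.96 (16.3-fold, adjusted p = 0.0487). In each of these 3 genes the arrays of the 2 times lay far apart and the 24 h replicates were close. Serpinb6b, an intracellular inhibitor of serine proteases, went from undetected (5.31 and 5.37) to 10.41 and 9.53 and rose at least 20.7-fold (4.63, SE 0.31, adjusted p = 0.00236). It was the 1 of 5 serpin members that passed.

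Of 14 members of the interleukin-1 and inflammasome list 3 rose and 0 fell. Il1a, an alarm cytokine kept inside the cell until released, was undetected at 0 h (4.60 and 4.72) and stood at 9.23 and 8.24 at 24 h, at least 8.82-fold higher (4.08, SE 0.34, adjusted p = 0.00479). Il33, another alarm cytokine, stood at 4.64 and 4.80 and then at 6.27 and 6.42 (at least 1.68-fold, adjusted p = 0.0271), the same change of 1.62 in both numbers. Casp4, an inflammatory caspase, went from 6.63 and 6.58 to 8.56 and 8.11 (1.73, SE 0.27). The list median was −0.06 against −0.01 over all members. Il18r1 (−1.07) and Il18rap (−0.67), the chains of the IL-18 receptor, did not pass.

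**Figure D2:**
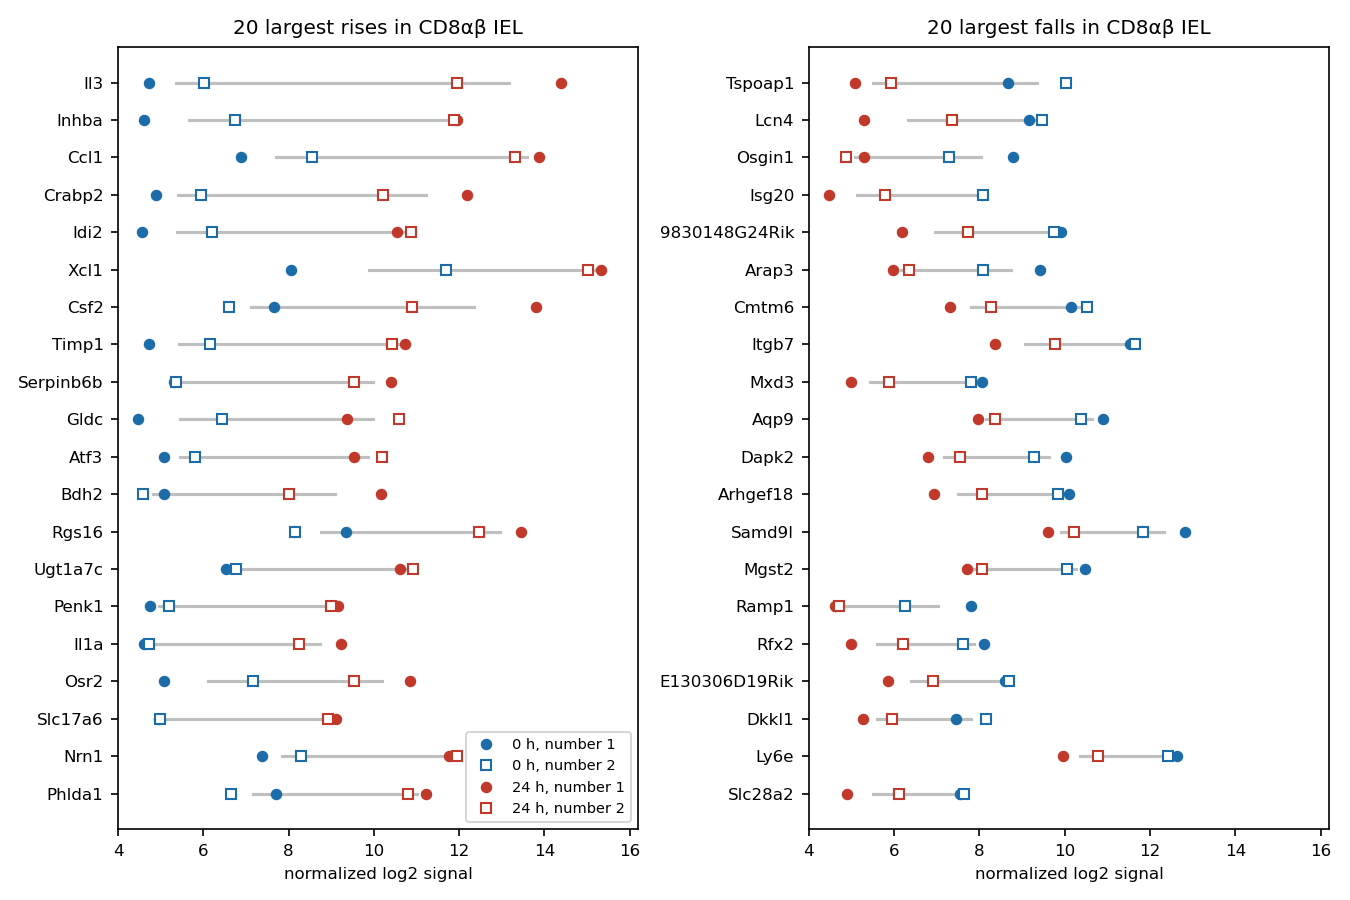
Log2 signal of the 20 largest rises and the 20 largest falls among members that passed, with 1 point for each of the 4 CD8αβ arrays (2 at 0 h, 2 at 24 h). By the choice of genes, both arrays of one time lie beyond both of the other in each row. Il3 spans the widest range, from 4.72 to 14.38, and Tspoap1 shows the largest fall.

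Surface receptors changed in both directions. Of 11 TNF receptor members 1 passed and 9 had positive changes (median 1.05). Tnfrsf4, the costimulatory receptor OX40, went from 9.35 and 10.48 to 12.95 and 13.25 (9.12-fold, 3.19, SE 0.54). Tnfrsf9, the receptor 4-1BB, had a change of 2.87 with adjusted p = 0.0586 and did not pass. Of 11 TNF ligand members (median 0.95) Tnfsf11, the gene of RANKL, rose from 7.2 and 7.05 to 10.66 and 10.12 (9.58-fold, adjusted p = 0.0275). At the extremes of that list, neither of which passed, Cd70 had a change of 3.47 (adjusted p = 0.186) and Ltb, lymphotoxin β, one of −3.47 (adjusted p = 0.0965). Ltb, chosen after its values were seen, stood at 11.61 and 11.43 at 0 h and at 6.76 and 9.34 at 24 h, so its 24 h replicates differed widely while the times did not overlap.

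Among 17 interleukin and interferon receptor members, 1 rose and 1 fell. Il2ra, the high-affinity chain of the IL-2 receptor, went from 7.56 and 7.93 to 9.94 and 10.85 (6.28-fold, adjusted p = 0.0271). Ifngr1, the ligand-binding chain of the interferon-γ receptor, went from 9.92 and 10.03 to 7.96 and 8.40 (3.47-fold lower, change −1.80, SE 0.23, adjusted p = 0.0207). Both changed to a similar degree in the 2 replicate numbers, by 2.38 and 2.92 for Il2ra and by −1.96 and −1.64 for Ifngr1. Ifng stood at 9.03 and 13.38 at 0 h and at 15.53 on both 24 h arrays, and did not pass (4.33, SE 1.20, adjusted p = 0.0844). At 24 h Ifng was among the brightest IDs, where quantile normalization gives the same few values on each array and little room to differ. Its call rested on the 0 h arrays: without replicate 1 at 0 h its change was 2.15, without replicate 2 it was 6.5, and it passed in both of those fits.

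Tetraspanins, membrane organisers that group receptors, split. Cd9 was undetected at 0 h (5.51 and 5.51) and stood at 9.32 and 8.21 at 24 h, at least 8.99-fold higher (3.25, SE 0.64, adjusted p = 0.0458). Cd37, which is specific to leukocytes, went from 9.81 and 9.46 to 8.33 and 8.26 (−1.34, SE 0.24), and Tspan14, a partner of the ADAM10 protease, from 10.48 and 10.09 to 8.96 and 9.11 (−1.24, SE 0.22). Of 9 tetraspanin members 1 passed higher and 2 lower; Cd63 (2.76, adjusted p = 0.0898) and Cd81 (2.41, adjusted p = 0.161) did not pass.

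Genes of adhesion and migration also split. Crtam, a receptor of activated cytotoxic cells, went from 6.38 and 6.35 to 10.32 and 9.95 (13.7-fold, adjusted p = 0.0434). Cd44, the hyaluronan receptor, went from 7.76 and 7.58 to 9.79 and 9.34 (3.72-fold). Plxnd1, a semaphorin receptor, went from 5.81 and 5.70 to 7.53 and 8.55 (4.86-fold). These were the 3 of 16 adhesion and guidance members that passed, all higher, while the list median was −0.14. Itgb7, the β7 chain of the gut integrins, went the other way, from 11.52 and 11.65 to 8.36 and 9.76 (5.76-fold lower, adjusted p = 0.0412). Its partner αE, Itgae, had changes of −3.26 and −1.89 and did not pass (−2.57, adjusted p = 0.0675), and 7 of the 8 integrin members had negative changes.

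Of 16 receptors for chemokines and related mediators, 1 rose and 1 fell. Gpr65, an acid-sensing receptor, went from 7.76 and 8.62 to 10.37 and 10.49 (4.73-fold). S1pr4, a receptor for sphingosine 1-phosphate, went from 7.32 and 6.99 to 6.03 and 6.09 (−1.10, SE 0.20). Ramp1, a subunit of the receptor for the neuropeptide CGRP, went from 7.81 and 6.26 to undetected at 24 h (4.60 and 4.70), at least 2.46-fold lower (adjusted p = 0.0445). Cmtm6, which is known to keep PD-L1 on the cell surface, went from 10.14 and 10.52 to 7.31 and 8.28 (5.77-fold lower). Ly6e, a small GPI-anchored protein, went from 12.64 and 12.42 to 9.95 and 10.77 (4.49-fold lower, adjusted p = 0.022). In all 3 of these falls the 2 times were clearly apart, and the fall was larger in number 1.

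Among signalling genes, negative regulators appeared on both sides. Rgs16, which shortens signals from G protein-coupled receptors, went from 9.35 and 8.15 to 13.45 and 12.47 (18.6-fold, adjusted p = 0.0314), by nearly the same amount in each number (4.10 and 4.33). Of 5 RGS members it alone passed. Socs3, an inhibitor of cytokine receptor signalling, went from 8.85 and 8.87 to 10.86 and 11.39 (4.81-fold, adjusted p = 0.035), the 1 of 5 SOCS members that passed. Dusp16 (1.58, SE 0.22) and Dusp3 (at least 2.05-fold, 1.47, SE 0.22), phosphatases of MAP kinases, rose among 9 members of that feedback group. Dusp4 (2.46, adjusted p = 0.0688) and Dusp1 (−1.39, adjusted p = 0.427) did not pass.

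Of 18 members of a list of E3 ligases and other brakes on the T cell receptor, 3 fell and 0 rose, with 9 positive and 9 negative changes in all. Csk, the kinase that holds Lck inactive, went from 12.56 and 12.75 to 11.30 and 11.71 (−1.15, SE 0.22, adjusted p = 0.0434). Sla2, an adaptor that promotes removal of receptor chains, went from 8.74 and 8.90 to 7.32 and 7.50 (−1.41, SE 0.20). Dok2, an adaptor that limits Ras signalling, went from 11.73 and 11.25 to 10.32 and 9.89 (−1.38, SE 0.25). All 4 arrays of each gene were apart by time, and the median of the list was −0.06. Tnfaip3 (1.05), Cd5 (0.83) and Ptpn6 (0.64), other brakes chosen after their values were seen, did not pass. The 27 members of the receptor signalling pathway had a median change of −0.50, and 19 of them had negative changes.

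The calcium pathway had 3 rises and 0 falls that passed among 19 members, with a list median of −0.29. Orai1, the pore of the store-operated calcium channel, went from 8.79 and 8.60 to 10.38 and 9.93 (2.76-fold, adjusted p = 0.0484). Itpr1, a receptor that releases calcium from the endoplasmic reticulum, went from 8.48 and 8.70 to 10.34 and 10.05 (3.05-fold, adjusted p = 0.0184). Kcnn4, a calcium-activated potassium channel, went from 8.50 and 8.02 to 10.42 and 10.03 (3.89-fold). The arrays of the 2 times did not overlap for any of these 3.

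Of the regulators of small GTPases 3 fell and 0 rose. The list held 24 members chosen by symbol prefix (Arhgap, Arhgef, Arap, Dock, Rap1g and Rin, the last of which also takes the unrelated Ring1). Of these, 20 had negative changes, 18 had both 24 h arrays below both 0 h arrays against 29.6% of all genes tested, and 3 passed as lower. Arhgef18, an exchange factor that activates small GTPases, went from 10.09 and 9.83 to 6.94 and 8.05 (5.53-fold lower, adjusted p = 0.0272). Arap3, which switches off small GTPases, went from 9.41 and 8.09 to 5.98 and 6.35 (5.97-fold lower). Arhgap4, a GTPase-activating protein of blood cells, went from 11.56 and 11.15 to 9.51 and 10.15 (2.87-fold lower). A further such gene, E130306D19Rik, now named Arhgef39, was outside the list under its array name and went from 8.59 and 8.69 to 5.85 and 6.92 (adjusted p = 0.0487). The list median was −0.71, and −0.12 with a background estimated from all IDs.

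Transcription factors of the bZIP and NR4A families held several rises. Atf3, a stress-induced member of the ATF family, went from 5.08 and 5.81 to 9.54 and 10.19, at least 17.6-fold higher (4.41, SE 0.36, adjusted p = 0.00471), by 4.45 and 4.38 in the 2 numbers. Batf3, an AP-1 family factor, went from 7.69 and 8.16 to 11.36 and 11.51 (11.4-fold, adjusted p = 0.0268). Nr4a2, an orphan nuclear receptor, went from 5.95 and 6.5 to 9.90 and 10.07 (13.6-fold). The 2 times were far apart for each of these 3 genes. Of 19 bZIP members 2 passed, both higher (median 0.37), and of 8 EGR and NR4A members 1 passed (median 0.92).

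Egr1, which the receptor switches on within minutes, changed in opposite directions in the replicate numbers. It stood at 9.42 and 14.21 at 0 h and at 11.59 and 12.15 at 24 h, so it changed by 2.17 in number 1 and by −2.05 in number 2. Egr3 (6.20 and 8.69, then 8.72 and 7.56) and Fos (4.62 and 10.25, then 6.17 and 8.18) also reversed between the numbers, and were chosen after their values were seen. In all 3 genes the 0 h array of replicate 2 was far above that of replicate 1, and the same held for Ifng and Xcl1 above and for the chemokine gene Ccl3 (7.75 and 13.21 at 0 h). Ccl9, chosen likewise, stood at 4.93 and 10.21 at 0 h and at 14.34 and 14.21 at 24 h and did not pass (adjusted p = 0.0615) despite a fitted change of 6.70. Cd69, an early activation marker, stood at 10.12 and 12.70 and then at 9.82 and 10.75 (−1.13, adjusted p = 0.519). Across the 8 EGR and NR4A members the median change was 2.17 in number 1 and 0.20 in number 2. In CD8αα cells at 0 h, replicate 2 was likewise far above replicate 1 for Egr1 (10.78 and 13.14) and Cd69 (10.78 and 12.61). For Ifng (9.68 and 9.89) and Xcl1 (13.80 and 13.37) the CD8αα replicates at 0 h were close. What sets the 0 h replicates apart was not tested.

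Factors that shape T cell fate split as well. Irf4, which scales with receptor signal strength, went from 8.82 and 9.49 to 11.59 and 11.96 (6.16-fold, adjusted p = 0.0132). Irf8, its relative, went from 8.36 and 7.60 to 10.74 and 10.75 (6.79-fold, adjusted p = 0.0418). Stat5a, which carries signals of IL-2, went from 7.19 and 6.96 to 9.80 and 9.74 (6.47-fold, adjusted p = 0.0183). Irf1, an interferon-induced factor, fell from 10.71 and 10.77 to 8.66 and 9.60 (3.05-fold), and Ets1, a factor of resting T cells, from 10.02 and 10.05 to 8.97 and 9.11 (1.98-fold). In each of the 5 the times were apart in both replicate numbers. The other 21 of the 26 lineage factor members did not pass, and the list median was −0.24.

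Nuclear regulators less often named in T cells were among the extremes. Osr2, a zinc finger factor known from limb and tooth development, went from 5.07 and 7.17 to 10.84 and 9.54 and rose at least 13.8-fold (adjusted p = 0.035), by 5.77 in number 1 and 2.37 in number 2. Mxd3, an antagonist of Myc, fell at least 4.20-fold, from 8.06 and 7.80 to 4.98 and 5.87. Rfx2, a factor of cilium genes, fell at least 3.56-fold, from 8.10 and 7.61 to 4.99 and 6.21. Insm1, a zinc finger factor of neuroendocrine cells that was chosen after its values were seen, went from undetected (4.69 and 4.68) to 7.2 and 7.0, at least 2.85-fold higher (adjusted p = 0.00294).

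Of 24 members of the BCL2 and caspase list 4 rose and 0 fell, with 12 positive and 12 negative changes and a median of 0.00. Among the 4 was Casp4, given above, and the others were anti-apoptotic genes. Bcl2a1d and Bcl2a1b, close copies of the same anti-apoptotic gene, went from 9.60 and 10.37 to 11.77 and 12.11 (3.88-fold, adjusted p = 0.0487) and from 10.81 and 11.48 to 12.65 and 12.91 (3.11-fold, adjusted p = 0.0435). Because they are close copies, the array IDs may not tell them apart. Bcl2l1, the gene of BCL-XL, went from 6.75 and 7.15 to 8.41 and 8.68 (1.59, SE 0.25, adjusted p = 0.0333). Bcl2 (−1.35, adjusted p = 0.0704) and Mcl1 (−0.24, adjusted p = 0.74), other anti-apoptotic genes, did not pass. Phlda1, a protein linked to cell death and growth control, went from 7.71 and 6.64 to 11.22 and 10.81 (14.3-fold, adjusted p = 0.0153).

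Stress-response genes gave 2 rises and 1 fall among 17 members. Gadd45b, an NF-κB target that activates MAP kinases, went from 6.23 and 6.37 to 9.27 and 9.30 (7.89-fold, adjusted p = 0.0272). Srxn1, which restores oxidised peroxiredoxins, went from 7.09 and 7.02 to 9.03 and 8.76 (3.58-fold, adjusted p = 0.0383). Osgin1, an oxidative stress gene, went the other way, from 8.78 and 7.28 to undetected at 24 h (5.30 and 4.87), at least 4.90-fold lower (adjusted p = 0.035). The 2 times were apart for each. Plk2, a kinase of the stress and p53 response, went from undetected (4.86 and 5.07) to 8.39 and 8.30, at least 6.73-fold higher (adjusted p = 0.0412), and was the 1 of 17 p53 target members that passed.

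The promoters of 5 of these genes are shown because they rose and hold a letter match to a motif of AP-1 or of the related ATF factors. Each is the 250 bases before the RefSeq start of the gene in build GRCm38.p6, 5′ to 3′ on the gene's strand, with the match in capitals.
Il1a, chr2:129309973-129310222, minus strand: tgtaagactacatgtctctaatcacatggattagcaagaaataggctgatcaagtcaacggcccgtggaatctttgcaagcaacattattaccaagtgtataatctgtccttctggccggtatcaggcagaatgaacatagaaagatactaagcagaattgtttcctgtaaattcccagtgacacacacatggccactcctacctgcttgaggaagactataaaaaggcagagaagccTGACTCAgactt
Srxn1, chr2:152105274-152105523, plus strand: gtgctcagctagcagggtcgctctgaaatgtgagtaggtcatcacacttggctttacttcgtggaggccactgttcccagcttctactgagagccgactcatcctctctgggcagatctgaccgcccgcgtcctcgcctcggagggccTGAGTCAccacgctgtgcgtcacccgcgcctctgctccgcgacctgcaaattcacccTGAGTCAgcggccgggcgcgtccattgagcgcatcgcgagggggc
Bcl2a1b, chr9:89199023-89199272, plus strand: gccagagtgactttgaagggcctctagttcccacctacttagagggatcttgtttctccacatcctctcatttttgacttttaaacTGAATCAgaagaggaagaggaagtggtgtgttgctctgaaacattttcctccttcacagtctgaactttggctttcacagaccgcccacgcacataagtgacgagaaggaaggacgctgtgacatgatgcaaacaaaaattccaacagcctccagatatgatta
Bcl2a1d, chr9:88731851-88732100, minus strand: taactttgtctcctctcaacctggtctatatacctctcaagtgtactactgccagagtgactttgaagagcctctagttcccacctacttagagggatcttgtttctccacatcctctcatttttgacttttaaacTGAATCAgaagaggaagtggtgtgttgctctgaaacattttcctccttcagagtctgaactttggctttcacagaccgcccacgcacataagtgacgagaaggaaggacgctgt
Plk2, chr13:110394794-110395043, plus strand: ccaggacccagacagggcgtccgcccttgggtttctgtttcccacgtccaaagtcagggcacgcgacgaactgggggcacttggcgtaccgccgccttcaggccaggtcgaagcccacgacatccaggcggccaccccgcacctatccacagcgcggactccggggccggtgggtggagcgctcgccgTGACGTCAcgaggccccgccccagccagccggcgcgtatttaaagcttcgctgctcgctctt
The capitals mark the AP-1 motif (TGANTCA) in the first 4 and the cyclic AMP response element (TGACGTCA) in Plk2. Both strands were searched for these motifs, for an NF-κB motif and for the E-box (CACGTG), and no matches overlap in these windows.

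A promoter was listed for 127 of the 162 rises and 116 of the 141 falls. The AP-1 letters were in 8.66% of the promoters of rises (11 genes) and 2.59% of those of falls (3 genes), against 4.1% for all genes tested and 6.87% for all promoters in the table. The E-box was in 8.66% and 7.76%, against 8.54% of the genes tested. The cyclic AMP element was in 1 promoter of each set (0.787% and 0.862%) against 2.81%, and the NF-κB letters in 0 of each against 0.296%. These matches describe letters in a window and no binding was measured. In Il1a the match lies 6 to 12 bases before the start, in Srxn1 there are 2 matches, and in the Bcl2a1 pair it is the same 7 letters at 158 to 164 and 108 to 114 bases before the listed starts. Osgin1 and Mgst2, which fell, also hold an AP-1 match.

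Enzymes and transporters with little known role in T cells gave large rises. Crabp2, which carries retinoic acid to its nuclear receptor, went from 4.88 and 5.94 to 12.19 and 10.22, at least 42.8-fold higher (5.80, SE 0.65, adjusted p = 0.0136). Idi2, an isopentenyl diphosphate isomerase of the sterol pathway, went from 4.56 and 6.20 to 10.55 and 10.86, at least 27.6-fold higher (adjusted p = 0.0298). No other of the 19 sterol members passed. Gldc, the decarboxylase of the glycine cleavage system, went from 4.47 and 6.44 to 9.37 and 10.59, at least 15.4-fold higher. None of the 16 members of folate and nucleotide synthesis passed, although 13 had positive changes (median 0.52).

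Bdh2, a dehydrogenase of the ketone body family, went from undetected (5.08 and 4.58) to 10.17 and 8.0, at least 11.2-fold higher (adjusted p = 0.035), and its 24 h replicates were far apart. Ugt1a7c, a glucuronosyltransferase whose gene shares its last exons with the other UGT1A genes, so that the array ID may not tell them apart, went from 6.53 and 6.77 to 10.62 and 10.91 (17.3-fold, 4.11, SE 0.36, adjusted p = 0.00567). Its replicates were close at both times and the changes were 4.08 and 4.14. Smox, the spermine oxidase, rose at least 3.72-fold, from 5.56 and 5.85 to 7.45 and 7.82, and was the 1 of 8 polyamine members that passed. Srm, the spermidine synthase, had changes of 1.83 and 1.70 but an adjusted p of 0.106. Acss2, which makes acetyl-CoA from acetate, fell from 8.53 and 7.83 to 6.89 and 6.74 (2.57-fold).

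Of 99 solute carrier members 7 rose and 3 fell, with a list median of 0.21. Slc17a6, a vesicular glutamate transporter of neurons, went from undetected (4.97 and 4.98) to 9.12 and 8.93, at least 10.8-fold higher (4.05, SE 0.40, adjusted p = 0.0103). Slc2a6, the glucose transporter family member GLUT6, rose at least 9.63-fold, from 5.59 and 5.72 to 9.24 and 8.66 (adjusted p = 0.0155), and Slc37a1, a sugar phosphate exchanger, went from 6.15 and 6.23 to 9.08 and 8.35 (5.77-fold). The better known glucose transporters of T cells Slc2a1 (−0.11) and Slc2a3 (−0.27) did not pass. Slc28a2, a nucleoside transporter, fell at least 3.05-fold, from 7.54 and 7.63 to 4.90 and 6.12, and Slc25a45, a mitochondrial carrier, went from 9.92 and 9.71 to 7.51 and 8.15 (3.97-fold lower). Aqp9, a channel for water and glycerol, went from 10.89 and 10.37 to 7.97 and 8.36 (5.54-fold lower), and Mgst2, a microsomal glutathione transferase, from 10.47 and 10.06 to 7.71 and 8.06 (5.23-fold lower, adjusted p = 0.0134). For both, all arrays at 24 h were below all arrays at 0 h with no overlap.

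The largest fall was that of Tspoap1, a binding protein of presynaptic release sites, from 8.66 and 10.02 to 5.08 and 5.93, at least 11-fold (−3.84, SE 0.75, adjusted p = 0.0439). Lcn4, a lipocalin, fell at least 6.60-fold, from 9.16 and 9.47 to 5.28 and 7.35, and without 24 h replicate 1 its change was −1.97. Isg20, an interferon-induced exonuclease, fell at least 4.76-fold, from 8.05 and 8.08 to 4.48 and 5.79. In these 3 genes number 1 was the lower at 24 h, and neither replicate reached the 0 h level. Samd9l, an interferon-induced growth suppressor, went from 12.83 and 11.83 to 9.60 and 10.22 (5.34-fold lower), and Dapk2, a death-associated kinase, from 10.02 and 9.27 to 6.80 and 7.55 (5.53-fold lower). The array ID 9830148G24Rik, which carries no gene name beyond that clone, went from 9.91 and 9.74 to 6.18 and 7.73 (7.32-fold lower), and Dkkl1, a secreted protein best known from sperm, fell at least 3.75-fold, from 7.45 and 8.15 to 5.26 and 5.94.

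Large gene families of growth showed small shifts in which few members passed. Of 33 translation initiation members 26 had positive changes (median 0.46) and 0 passed. The same held for tRNA synthetases (15 of 17 positive, median 0.47, 0 passed), for chaperonins and heat shock proteins (16 of 18, median 0.50, 0 passed) and for the proteasome (24 of 30, median 0.24, 0 passed). Eif4a1, the helicase of initiation, stood at 13.22 and 13.14 and then at 13.68 and 13.60 (0.46, adjusted p = 0.271). Mitochondrial ribosome genes were positive in 44 of 60 with a median of 0.28, and Mrps28 passed (0.91, adjusted p = 0.0435). Genes of protein entry into the endoplasmic reticulum and its vesicles were positive in 34 of 40, and Srpr, the receptor of the signal recognition particle, passed (1.08, SE 0.20). RNA polymerase subunits were positive in 12 of 13, and Polr3g of polymerase III passed (0.87, adjusted p = 0.0427). Ipo4, a nuclear import receptor, went from 8.23 and 8.02 to 10.19 and 9.70 (1.82, adjusted p = 0.0488).

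Cytoplasmic ribosome genes (67 members, median 0.04) and respiratory chain genes (67 members, median −0.11) lay near the median of all members, and 0 and 1 passed. The 1 was Ndufaf4, an assembly factor of complex I, from 9.94 and 10.37 to 11.18 and 11.28 (1.07, adjusted p = 0.0465). None of the 14 glycolysis members passed, with Gapdh at 14.86 and 14.40 and then at 14.73 and 14.61. Rpl41, Rplp1 and Ubb were among the genes brightest at 0 h, and their changes were 0.07, 0.10 and 0.00. Quantile normalization gives the brightest IDs the same few values on each array, which leaves them little room to rise.

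**Figure D3:**
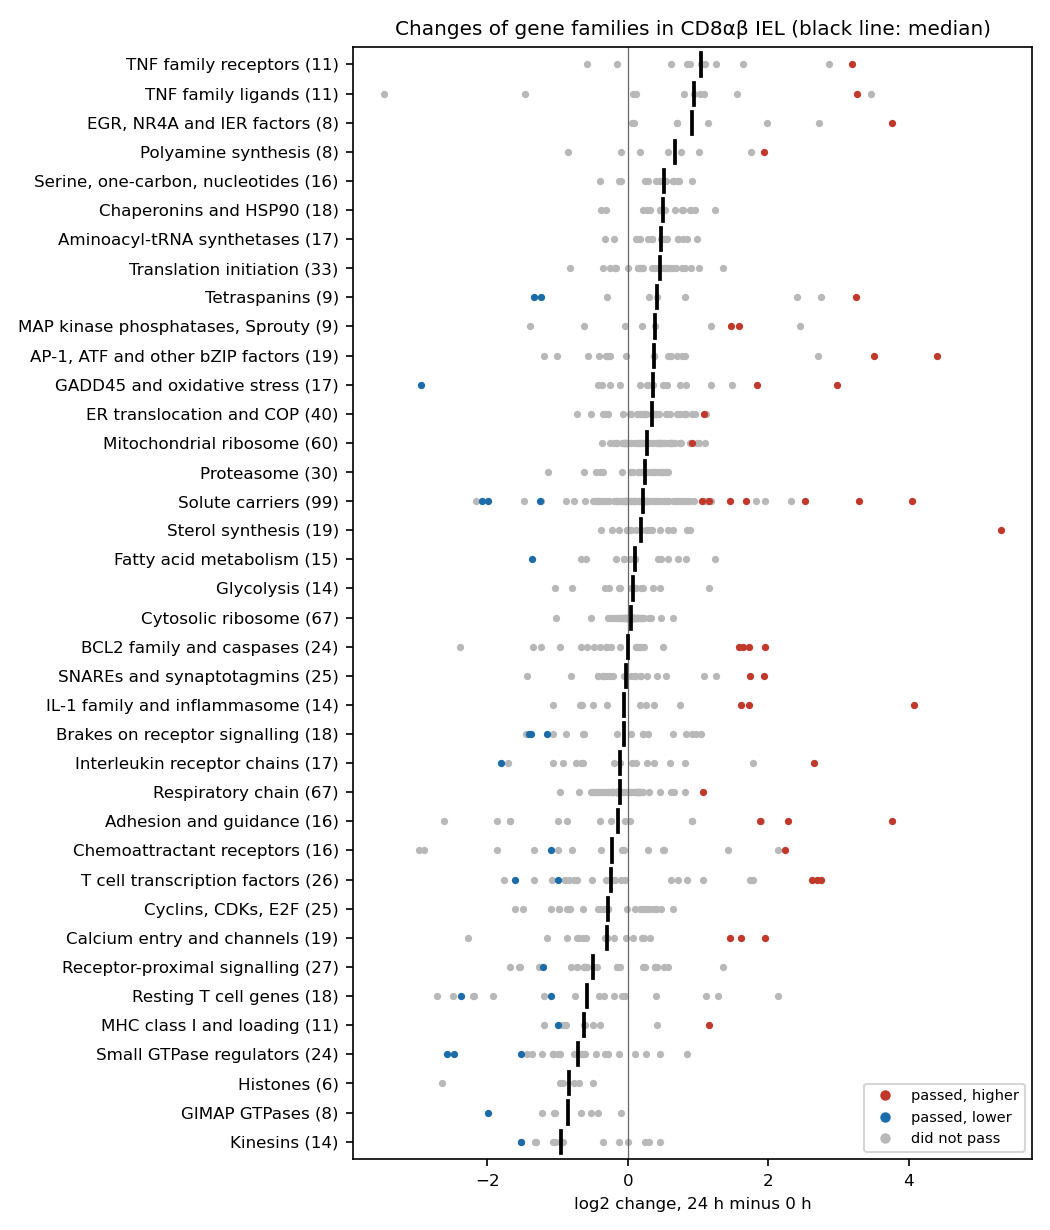
Changes (log2, 24 h minus 0 h) of the members of 38 gene families, 1 point per member, coloured where it passed (red higher, blue lower), and a black line at each family's median. Medians run from −0.95 for kinesins to 1.05 for TNF receptors, and the median of all members is −0.01.

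The lowest family medians were those of kinesins, GIMAP proteins, histones, the SLAM receptors and the regulators of small GTPases. Of 6 members of the SLAM list, receptors that lymphocytes use to signal to each other, 0 passed (median −0.73), with Slamf1 at 1.73 and Cd244a at −1.30. All 8 GIMAP members, GTPases of lymphocyte survival including the related Gvin1, had negative changes (median −0.85). Of these, 6 had both 24 h arrays below both 0 h arrays, against 29.6% of all genes tested. Gimap7 passed, from 11.98 and 11.39 to 9.58 and 9.81 (3.96-fold lower, adjusted p = 0.0251), while Gimap5 had a change of −0.09. Of 18 quiescence members 14 were negative (median −0.58), and Ramp1 and S1pr4 above were the 2 that passed. Txnip, a brake on glucose uptake, stood at 12.12 and 13.59 and then at 9.18 and 11.10, a change of −2.72 that did not pass (adjusted p = 0.164), and Klf2, a factor of quiescent T cells, likewise did not (−2.20, adjusted p = 0.197).

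Kinesins, the motors of which many act in mitosis, were negative in 10 of 14 with a median of −0.95. Kif22, which moves chromosomes, passed from 11.65 and 11.47 to 9.90 and 10.17 (2.86-fold lower, adjusted p = 0.0412). The 6 histone members of the list were all negative (median −0.84) and 0 passed, and 0 of 25 cell cycle control members passed (median −0.28). H2az1 stood at 12.51 and 12.58 and then at 11.73 and 11.83 (adjusted p = 0.0847). Histone genes under newer symbols, such as H2ac20 and H2ac24, were outside that list; both were among the brightest at 0 h and had changes of −0.57 and −0.56 that did not pass.

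Of 11 members of the MHC class I pathway 9 were negative (median −0.62), and the nonclassical genes split. H2-T23, the gene of Qa-1, rose from 11.19 and 11.21 to 12.45 and 12.26 (2.23-fold, adjusted p = 0.0379), and H2-T10 fell from 9.71 and 9.74 to 8.80 and 8.64 (2.01-fold, adjusted p = 0.0406). Both changed by nearly equal amounts in the 2 numbers. MHC class I genes are close copies, so the array IDs may share signal between them. Lgals8, a galectin, fell from 7.87 and 7.94 to 6.17 and 6.52 (2.96-fold, adjusted p = 0.0183). Of the secretory machinery of cytotoxic cells, Stx11, a syntaxin needed for granule release, rose from 8.35 and 8.51 to 10.18 and 10.56 (3.85-fold), and Sytl3 from 7.75 and 7.46 to 9.45 and 9.25 (3.35-fold). They were the 2 of 25 vesicle fusion members that passed. Ctsz, a cathepsin, rose from 7.51 and 7.47 to 8.82 and 9.17 (2.84-fold), and St6galnac4, a sialyltransferase, from 7.46 and 7.69 to 9.14 and 8.69 (2.53-fold).

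Only 13 members passed without any 1 of the 8 arrays, all of them rises, and 0 passed under every alternative setting. Of the 96 genes that passed among those chosen by the naming rule, 4 passed without any 1 array. The 13 were Atf3, Il1a, Penk1 and Serpinb6b above, with Insm1, Akr1b8, Cd200, Cd83, Cyp11a1, Rbpms2, Spint1, Timd2 and 5430433G21Rik (now named Ism1), which were chosen after their values were seen. Akr1b8, an aldo-keto reductase, went from 5.19 and 4.65 to 8.12 and 8.07, at least 5.67-fold higher (3.17, SE 0.24, adjusted p = 0.00356). Cyp11a1, the first enzyme of steroid hormone synthesis, went from 5.13 and 4.82 to 7.89 and 7.93, at least 4.98-fold higher (2.93, SE 0.19, adjusted p = 0.00236). Cd200, a ligand of an inhibitory receptor of myeloid cells, went from 4.48 and 4.47 to 7.52 and 7.16, at least 3.35-fold higher (2.86, SE 0.18). Rbpms2, an RNA-binding protein, went from 4.45 and 4.77 to 8.17 and 8.44, at least 6.54-fold higher (3.70, SE 0.20), and Spint1, an inhibitor of cell surface proteases, from 4.69 and 4.95 to 7.92 and 7.95, at least 5.08-fold higher. Apart from Atf3, which was detected on 1 array at 0 h, the genes named in this paragraph with values were undetected at 0 h and detected on both 24 h arrays. Atf3, Il1a, Penk1 and Serpinb6b met the detection limit at 24 h only, so they were members through the time at which they are high. Whether signals near the floor at 0 h made these calls more stable was not tested.

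The response was set beside that of the CD8αα cells to see where it differs. All 162 rises and all 141 falls had the same sign in CD8αα cells, and 126 and 113 of them passed there in the same direction, where 11% of all genes tested passed. The same sign was also found for 5799 of all 6809 members. Both responses were tested with the same estimate of spread for each gene. A gene with a small spread could therefore pass more easily in both subsets, and the 11% is not an independent baseline. The median change was 1.52 in CD8αα cells for the rises and −1.40 for the falls. In the limma test of the difference of the 2 responses 0 genes passed, with 134 of all genes tested at an unadjusted p under 0.05, among them 27 of the 162 rises and 11 of the 141 falls. Differences between the subsets below are therefore values without a passing test, which does not show that the responses were alike.

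Il1a stood at 4.52 and 4.55 at 0 h and at 6.17 and 5.68 at 24 h in CD8αα cells, against 9.23 and 8.24 at 24 h in CD8αβ cells, and the difference of the responses was 2.68 (SE 0.48, adjusted p = 0.629). Inhba stood at 4.47 and 4.48 and then at 7.69 and 7.02 in CD8αα cells, a difference of 3.38 (SE 0.89, adjusted p = 1); with a background from all IDs it passed this test, as the 1 named gene that did so with that background. Both genes were undetected at 0 h in both subsets, except Inhba in CD8αβ replicate 2 (6.74), and stood higher at 24 h in CD8αβ cells. Ccl1 and Xcl1 differed at 0 h instead. In CD8αα cells Ccl1 already stood at 12.28 and 9.94 at 0 h and at 12.99 and 14.11 at 24 h, and Xcl1 at 13.80 and 13.37 and then at 14.86 and 15.31. Ramp1 was near the floor in CD8αα cells at both times (5.25 and 4.77, then 4.64 and 4.71), a difference of −2.04 (SE 0.66).

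**Figure D4:**
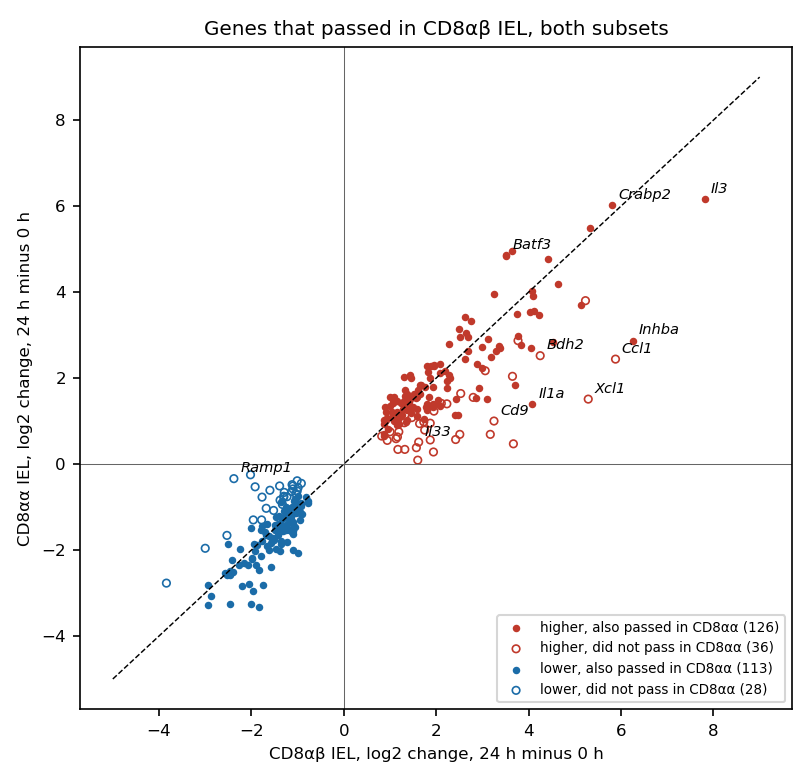
Change (log2, 24 h minus 0 h) in CD8αβ cells (x axis) against that in CD8αα cells (y axis) for the 303 members that passed in CD8αβ cells, with the line of equal change. All points lie on the same side of 0 in both subsets; Il1a, Inhba, Ccl1 and Xcl1 lie below the line and Batf3 above it.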

How the data were processed

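Total RNA of 8 samples (2 cell types, 2 times, 2 arrays per group) was labelled with biotin and hybridised to Illumina mouse bead arrays, per the labels' protocols. The deposited non-normalized table gives, per the file headers, a mean intensity, the spread and number of beads and a detection p-value for each ID and array. The submitters also deposited log2 values made with lumi, per the submitters' processing notes, which served as an alternative. No version is given in the sources used here. The deposited log2 values of CD8αα 24 h replicate 1 correlated at 0.98 with its own intensities, but best with those of CD8αβ 24 h replicate 1. Each other array matched its own intensities best. From the deposited intensities, the background was estimated by normexp from the detection p-values of 22828 single-probe IDs, with an offset of 16, and the arrays were quantile normalized. Of 31492 IDs 21937 received a gene symbol. For each gene the brightest ID with a detection p-value under 0.01 on both arrays of a group was kept, and 7326 genes were tested with limma 3.58.1 in R 4.3.3. The fit had a mean per group over all 8 arrays (4 residual degrees of freedom), with Benjamini-Hochberg adjustment over all genes and a threshold of 0.05. A fold is written as "at least" where the lower group was undetected on 1 or both arrays, and is then taken against, on each array of that group, the higher of the lowest detected signal and the gene's own signal. Only 2 arrays per group limit the precision. The code was tested on simulated data. No column of the tables was left out. Genes described are the 20 largest rises and 20 largest falls among members that passed and whose 2 times did not overlap. They also include up to 3 and 2 members that passed per family list and direction, and the brightest 2 members of lists without one. Other genes given with values, such as Bcl2l1, Tnfrsf9, Cd63, Cd81, Cd70, Dusp1, Dusp4, Il18r1, Il18rap, Itgae, Bcl2, Mcl1, Srm, Txnip, Klf2, Tnfaip3, Cd5, Ptpn6 and Slamf1, were chosen after their values were seen. A few results are not reported here. The members and the lists were chosen with earlier results of these data known. Alternatives covered background, normalization, filters, arrays left out, chip, replicate number and array weights.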

Additional observations from a re-analysis of the deposited data

How the results depend on the processing

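The direction of the 303 members that passed was the same under all alternatives in which they were tested. With 1 array left out or with array weights it could not differ, because the 2 times did not overlap for any of the 303. Values that did not pass were less settled: with 1 array left out, the change of Egr1 ranged from −2.33 to 2.45 and that of Cd69 from −2.42 to 0.17. List medians had the opposite sign and differed by over 0.1 in 29 combinations of list and alternative. The number that passed was less stable. Against 307 genes (164 higher, 143 lower), a background from all IDs gave 141 (73 and 68), no detection filter 172 (106 and 66), and the 4 CD8αβ arrays alone 59 (56 and 3). The chip 1 arrays alone gave the same counts, since the lone CD8αα array of each time there adds no estimate of spread. Of the 303 members, 80 kept their call with a background from all IDs and 109 without a detection filter. With the 4 CD8αβ arrays alone 50 of them did. The deposited log2 values gave 356 genes (177 and 179) and kept 212 of the 303. The chip as a block gave 487 genes with 242 lower, and array weights 476 with 233 lower. Of the alternatives added after seeing the data, genes detected at both times gave 190 (96 and 94), a set with fewer genes, and keeping IDs without a symbol gave 212 with 86 lower. Leaving out 1 array at a time gave 18 to 242 genes, 18 to 150 higher and 0 to 92 lower. With the replicate block 1992 genes passed (955 and 1037), all 303 members included. Deviations of arrays with the same number correlated at 0.493 to 0.664 between groups, but with 2 numbers this is no more than a hint that the numbers pair the samples. The difference between the cell types passed for 0 named genes, and for 1, Inhba, with a background from all IDs. Among values of named genes, 862 no longer passed and 14 newly passed. With that background the medians of the TNF ligands and TNF receptors were 0.07 and 0.11. Apart from sets with fewer genes or arrays, the cause was not tested. Signals near background give bounds only.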
